A study of Mus musculus with 6 samples.

Results

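Accessible chromatin was examined at 10 genes of the MHC class I presentation pathway, chosen by name: the heavy chains H2-K1 and H2-D1, the light chain B2m, the peptide transporter subunits Tap1 and Tap2, tapasin (Tapbp), the immunoproteasome subunits Psmb8, Psmb9 and Psmb10, and the transactivator Nlrc5. A region belonged to a gene if a peak summit lay in the gene body or within 3 kb of one of its annotated starts. This gave 19 regions out of 62876 in the whole series, with 12 present in every list, and each of the 10 genes had a peak in every library. The data were ATAC-seq peak lists, in which the Tn5 transposase marks open DNA, from peripheral white blood cells of mice after red cell lysis. The 3 control libraries came from mice kept in normoxia. The 3 HADA (high-altitude de-acclimatization) libraries came from mice that had been in a hypobaric hypoxia chamber and were then returned to normoxia. Per the study's methods the mice were male C57BL/6j. No genetic alteration is named for either group, and the time after return was not given for these libraries in the sources used here. The labels and methods call the cells white blood cells or leukocytes, while the results text of the study calls them mononuclear cells, which would hold few neutrophils. In these lists 9 of 11 neutrophil marker genes had a peak. All but 4 of 10 erythroid and platelet marker genes also had a peak after red cell lysis, so a peak alone does not settle which cells were present. The cells were not sorted, so each value is an average over blood cell types, and nothing in the labels says how the libraries of a group relate as animals or pools, so p-values measure the spread between these libraries.

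MHC class I molecules show peptides from inside the cell to CD8+ T cells and are carried by nearly all nucleated cells, leukocytes most abundantly. Peptides are cut by the proteasome, whose immune form replaces the constitutive catalytic subunits with Psmb8, Psmb9 and Psmb10. They are moved into the endoplasmic reticulum by the Tap1-Tap2 pump and loaded onto the heavy chain and B2m with the help of tapasin. The promoters of these genes are known for binding sites of NF-kappaB and interferon regulatory factors, followed by the SXY module, to which RFX, CREB/ATF and NF-Y proteins bind and to which Nlrc5 is recruited.

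The promoter sequences of the heavy chain and B2m genes are shown because they hold these elements and lie in accessible regions of every library, and that of Tap1 because it also holds the start of Psmb9 on the other strand. Each runs from 250 bases before to 50 after the RefSeq start, and each was placed in GRCm39 by an exact match. H2-K1 is at chr17:34219272-34219571 on the minus strand, H2-D1 at chr17:35481820-35482119 on the plus strand, B2m at chr2:121977918-121978217 on the plus strand and Tap1 at chr17:34406280-34406579 on the plus strand. Capitals mark matches, on either strand, to GGGGATTCC (the core of the kappaB element of heavy chain promoters), GGGNNTTTC (the core of a kappaB consensus), GAAANNGAA (the core of the interferon-stimulated response element), GAAGNGAAA (an interferon consensus sequence, added after a first search), TGACG (the core of the X2 box, bound by CREB/ATF) and CCAAT (the Y box, bound by NF-Y).
H2-K1: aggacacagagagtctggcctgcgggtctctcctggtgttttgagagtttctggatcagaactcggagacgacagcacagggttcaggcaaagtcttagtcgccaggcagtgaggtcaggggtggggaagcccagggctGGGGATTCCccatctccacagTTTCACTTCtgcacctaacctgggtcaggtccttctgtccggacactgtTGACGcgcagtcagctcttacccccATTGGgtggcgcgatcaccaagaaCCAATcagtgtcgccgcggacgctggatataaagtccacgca
H2-D1: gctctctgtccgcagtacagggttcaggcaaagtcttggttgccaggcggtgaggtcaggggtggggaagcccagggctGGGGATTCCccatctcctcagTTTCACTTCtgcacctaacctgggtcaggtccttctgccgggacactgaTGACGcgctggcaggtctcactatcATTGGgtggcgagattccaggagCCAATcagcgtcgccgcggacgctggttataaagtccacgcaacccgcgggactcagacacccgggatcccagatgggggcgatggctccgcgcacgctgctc
B2m: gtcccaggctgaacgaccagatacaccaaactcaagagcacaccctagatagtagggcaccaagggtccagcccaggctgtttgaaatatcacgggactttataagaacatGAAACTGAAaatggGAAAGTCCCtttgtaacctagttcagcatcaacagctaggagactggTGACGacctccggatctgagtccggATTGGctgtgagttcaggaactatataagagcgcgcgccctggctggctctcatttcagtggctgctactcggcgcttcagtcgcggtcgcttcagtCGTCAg
Tap1: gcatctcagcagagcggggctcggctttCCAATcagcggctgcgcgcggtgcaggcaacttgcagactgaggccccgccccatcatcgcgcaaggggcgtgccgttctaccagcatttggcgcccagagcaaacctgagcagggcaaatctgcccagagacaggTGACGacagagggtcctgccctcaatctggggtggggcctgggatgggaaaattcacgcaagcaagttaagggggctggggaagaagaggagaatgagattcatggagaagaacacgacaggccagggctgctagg

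Promoter windows were found for 8 of the 10 members, all but Tap2 and Nlrc5. GGGGATTCC was in 2 of the 8 windows, H2-K1 and H2-D1, and in 0.250% of all 32851 RefSeq promoter windows. GAAGNGAAA was in the same 2 windows and in 2.44% of all. In both heavy chain windows the GAAGNGAAA match, on the minus strand, began 21 bases, and the TGACG 70 bases, after the first base of the kappaB element. B2m was the 1 member with GAAANNGAA (8.56% of all windows) and the 1 member with GGGNNTTTC (4.36%). TGACG was in 5 of the 8 (20.8% of all) and CCAAT in 6 of the 8 (37.4% of all). The Tap1 and Psmb9 windows overlap on opposite strands, so these genes share 1 TGACG and 1 CCAAT, counted for both. In H2-K1, H2-D1 and B2m the next CCAAT match, on the minus strand, began 25 bases after the first base of TGACG. GAGGAAGT, a PU.1 sequence, and CCGGAAG, an ETS sequence, were in 0 of the 8 windows, against 3.20% and 8.86% of all. None of the marked matches overlap. The H2-K1 and H2-D1 windows, shifted against each other by their annotated starts, were identical at 89.5% of 239 aligned bases. These matches describe letters in a window and not occupied sites.

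Across the series, each list held 34045 to 45799 peaks, and the genome-wide background pileup, the only measure of depth in these lists, was 1.69 to 2.05 reads in the controls and 1.99 to 2.34 in HADA. Control 3 stood apart: it had the fewest peaks, and its summed peak height was lowest over 10 B cell marker genes and highest over 11 neutrophil marker genes. The height of a peak is given as its summit pileup, the number of reads overlapping at the summit. It is compared on 2 scales: divided by the background pileup of its library, or as log2 pileup after subtracting the library's median over the 23970 regions with a peak in all 6 libraries (centred). Of those 23970 regions, limma on the centred scale, at an adjusted p of 0.05, called 4291 with taller and 5769 with lower HADA peaks, so that 42.7% of calls were higher. The share of higher calls was 63.2% for pileup over background, 56.9% after quantile normalisation, 57.9% for ranks of fold enrichment and 25.6% when the libraries were centred on regions at coding starts. The median difference over all regions was -0.04 on the centred scale, 0.34 over background, 0.10 after quantile normalisation and -0.20 when centred on starts, so a small difference at 1 region takes its sign from the scale.

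The class I presentation genes had open regions in every library. All but Psmb10 had a region whose tallest summit lay within 1 kb of a protein-coding start. The Psmb10 peaks of control 1 and the 3 HADA libraries extended over its RefSeq start, but the summits lay further inside the gene. Of the 12 shared regions, 0 were called different between control and HADA. The same limma fit called 42.0% of all shared regions and 25.5% of the 10278 shared regions at coding starts. The share of all regions called changed with the library left out. It was 22.1% without HADA 1, 11.2% without HADA 2 and 22.6% without HADA 3, and 36.9% to 43.9% without a control. At an unadjusted p under 0.05, 1 of the 12 regions (Psmb10) passed, against 52.5% of all. The 12 differences (HADA minus control, centred log2) ran from -0.48 to 0.52, 6 above and 6 below 0. Their median was -0.07, against -0.04 over all shared regions and 0.12 at coding starts. Their median size was 0.24, against 0.53 over all shared regions and 0.33 at coding starts. Their 95% intervals reached from -1.02 to 1.04, so the values bound each difference and do not show that the groups were equal. Without control 3 the same 12 differences ran from -0.31 to 0.47 and none was called, but a further Nlrc5 region, then in all 5 lists, was (1 of 13, against 39.1% of all). Over background limma called 3 of the 12, all higher, where it called 50.4% of all regions (31.9% higher, 18.6% lower). After quantile normalisation it called 1, where it called 39.6% of all (22.5% higher, 17.1% lower). Centred on starts it called 1, lower, where it called 38.5% of all (9.85% higher, 28.7% lower), and by fold rank 0, where it called 11.3% of all (6.56% higher, 4.78% lower). The tallest 10% of shared regions held 5 of the 12, and limma called 11.6% of that class, with a median difference of -0.18.

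Separation of the groups was read in the same way. On the centred scale all 3 HADA libraries lay above all controls at 2 member regions (Psmb8 and Psmb10; 29.4% of all shared regions) and below them at 2 (H2-D1 and the inner Tapbp region; 31.2% of all), together 4 of 12 against 60.6%. Over background the groups were apart at 5 of the 12, all with HADA above (42.8% of all), and at 0 with HADA below (17.4% of all).

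**Figure D1:**
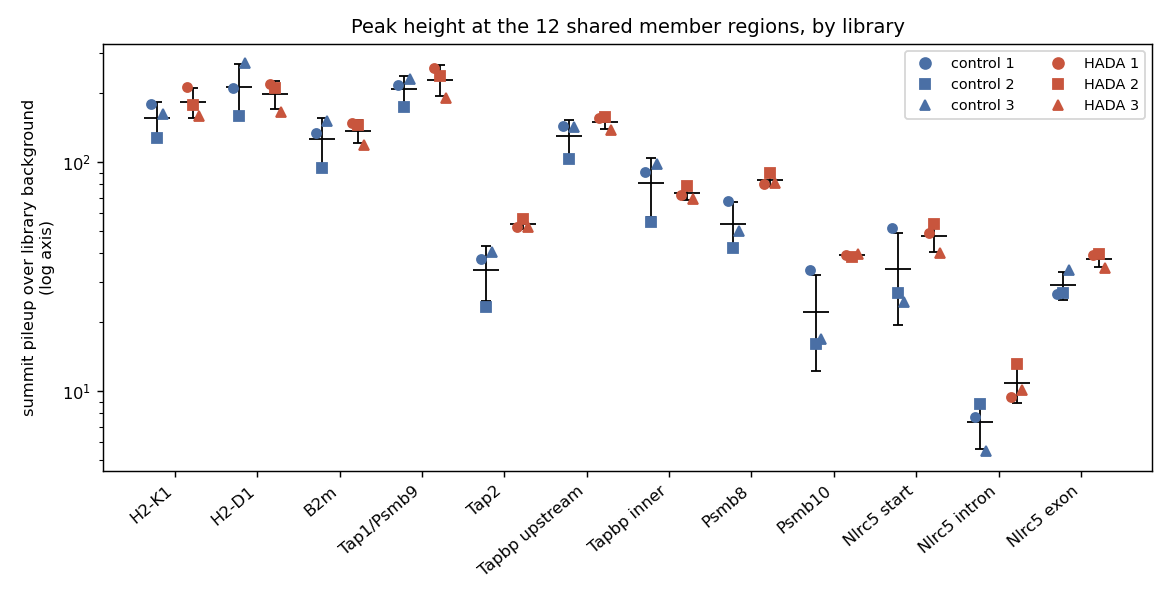
Summit pileup over library background (log axis) at the 12 shared member regions, 1 point per library, with the mean and SD of the 3 control (blue) and 3 HADA (red) libraries. The heavy chain, B2m, Tap1/Psmb9 and upstream Tapbp regions were the tallest and overlapped between groups, while all 3 HADA libraries lay above the controls at Tap2, Psmb8, Psmb10, the Nlrc5 intron and the Nlrc5 exon.

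H2-K1 and H2-D1 encode the polymorphic heavy chains that bind peptide. The H2-K1 region (chr17:34217865-34219837) covered the promoter and first exon, with a summit within 73 bases of the RefSeq start in every library. Its pileup was 305, 261 and 298 in control 1 to 3, and 498, 354 and 362 in HADA 1 to 3. Per background this was 157 ± 27.1 in control and 183 ± 27.1 in HADA (SD, n = 3 each), and the groups overlapped. On the centred scale the difference was -0.15 ± 0.18 (SE), with a 95% interval of -0.56 to 0.26 and an adjusted p of 0.519 (limma). It was -0.234 without HADA 1, -0.231 without control 2 and -0.0709 without HADA 3, and 0.23 over background.

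The H2-D1 region (chr17:35481503-35483489) had summits 109 to 161 bases upstream of the RefSeq start, between the kappaB element and TGACG of its window, where the interferon consensus sequence lies. Its pileup was 356, 325 and 495 in the controls, and 513, 419 and 377 in HADA. Over background it was 213 ± 56.0 in control and 199 ± 28.5 in HADA, with control 3 the highest of all 6 libraries. On the centred scale all 3 HADA libraries lay below the controls, by -0.46 ± 0.24 (interval -1.01 to 0.09, adjusted p 0.152, limma). Without control 3 this difference was -0.26 (adjusted p 0.228, limma), and without control 2 it was -0.593. H2-D1 also had the highest local background of the members, 50.1 to 81.8 reads. The heavy chain genes resemble their neighbours, and 82.5% of 50-base sequences in the H2-K1 region and 85.1% in the H2-D1 region were found once in the genome, so some reads there could belong to a near copy. The 50 bases at the tallest summit were found once for all 19 member regions.

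B2m encodes the invariant light chain, without which heavy chains do not reach the cell surface. Its region (chr2:121977418-121979349) had a summit 20 to 39 bases upstream of the RefSeq start in 5 libraries, just after the minus-strand CCAAT match, and 97 bases downstream in control 3. Its pileup was 227, 194 and 276 in the controls and 346, 289 and 270 in HADA. The groups overlapped over background (127 ± 28.9 and 137 ± 16.0) and on the centred scale, where the difference was -0.24 ± 0.21 (interval -0.73 to 0.25, adjusted p 0.381, limma). With single libraries left out it ran from -0.376 without control 2 to -0.0929 without control 3.

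Tap1, which forms the transporter with Tap2, and Psmb9, a catalytic subunit of the immunoproteasome, start back to back, and 1 region covered both (chr17:34405877-34407290). It was the second tallest of the member regions by mean height over background in control and the tallest in HADA. Its pileup was 369, 356 and 423 in the controls and 606, 475 and 432 in HADA. Its summits lay between 35 bases upstream and 12 bases downstream of the Tap1 start, after the TGACG of the printed window. Over background the values were 208 ± 30.2 and 229 ± 35.3 and overlapped. The centred difference was -0.24 ± 0.19 (interval -0.68 to 0.20, adjusted p 0.339, limma). It was -0.304 without control 1, -0.15 without control 3 and -0.13 without HADA 3. It belongs to both genes, which cannot be told apart here.

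Tap2 had 3 regions. The start region (chr17:34423244-34425295) lay inside the gene. Its tallest summit was 1132 bases from the start of the canonical transcript and 173 bases from another coding start. The region had pileups of 64, 48 and 74 in the controls and 122, 112 and 118 in HADA. Over background it was 33.9 ± 9.18 in control and 53.5 ± 2.44 in HADA, with the groups apart (ratio 1.58, exact two-sided permutation p = 0.1, the smallest that 3 against 3 can give). After centring the groups overlapped, with a difference of 0.32 ± 0.22 (interval -0.20 to 0.83, adjusted p 0.277, limma). Limma over background called the region (0.70, adjusted p 0.0393). The centred difference was 0.13 without control 2 and 0.473 without control 3. The region is 2052 bases long and its tallest summit was not at 1 place, lying at the far end in control 2 and control 3, where control 2 had a separate, lower peak of 40 reads near the start.

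An intronic Tap2 region (chr17:34430605-34431280) was the 1 member region with a peak in all 3 HADA and none of the control libraries, a pattern that 7.01% of all 62876 regions showed. The converse pattern was found at 0 member regions and 1.88% of all. Its pileups were 37, 26 and 32 in HADA, and a peak of 8 reads could have been called in each control library at the genome-wide background. The local background here was 5.27 to 5.63 reads in HADA, above the genome-wide level, and that of the controls is not known at this place.

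The last Tap2 region was upstream of the gene and had a peak of 45 reads in control 2 alone. It is not read further, since 6.84% of its 50-base sequences were found once in the genome.

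Tapbp, or tapasin, holds empty class I molecules at the transporter. It had a region at an upstream start (chr17:34134748-34135379), shared with the gene Zbtb22, and a longer one at the RefSeq start (chr17:34138187-34139943). The upstream region had pileups of 243, 212 and 260 in the controls and 364, 313 and 313 in HADA, with overlapping groups and a centred difference of -0.15 ± 0.18 (interval -0.57 to 0.26, adjusted p 0.510, limma). It was -0.248 without control 2, -0.0722 without control 3 and 0.23 over background. The inner region had 153, 112 and 180 in the controls and 169, 156 and 157 in HADA. Its centred values were lower in all 3 HADA libraries, by -0.48 ± 0.23 (interval -1.02 to 0.05, adjusted p 0.124, limma), the most negative of the 12 differences, while over background they overlapped (81.2 ± 23.3 and 73.3 ± 4.70). The inner difference was called without control 2 (-0.68, adjusted p 0.0387), was -0.31 without control 3, and was called when the libraries were centred on starts (-0.65, adjusted p 0.043). The tallest summit of the inner region was 91 and 165 bases from the RefSeq start in HADA 1 and HADA 2, and 1279 to 1354 bases inside the gene in the other 4 libraries, so these heights are not all of 1 summit.

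**Figure D2:**
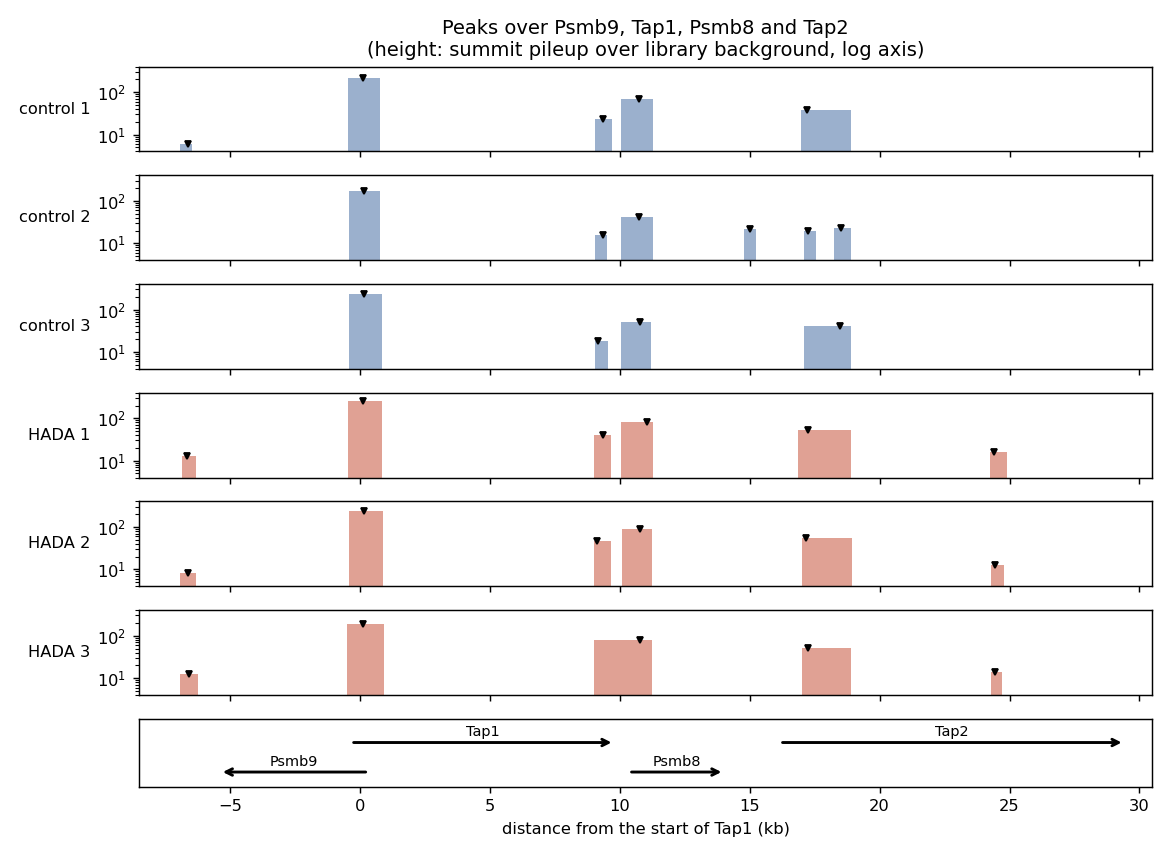
Peaks of each library over Psmb9, Tap1, Psmb8 and Tap2, placed by distance from the start of Tap1 in kb, with the height of each box giving the summit pileup over library background (log axis) and triangles the summits. Arrows at the bottom are the gene bodies in the direction of transcription. The shared Tap1/Psmb9 start was the tallest peak in all 6 libraries, and the Tap2 intron peak at the right was in the 3 HADA lists only.

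Psmb8, the chymotrypsin-like subunit that takes the place of Psmb5, starts just beyond the end of Tap1. Its region (chr17:34415374-34417653) had pileups of 115, 87 and 92 in the controls and 188, 179 and 184 in HADA. Over background it was 53.6 ± 13.1 in control and 83.8 ± 5.35 in HADA, and on this and the centred scale every HADA library lay above every control. The centred difference was 0.29 ± 0.17 (interval -0.10 to 0.68, adjusted p 0.194, limma). Over background the difference was 0.67 and passed (adjusted p 0.0469), where the median region was at 0.34. By fold rank, which sets the summit against its surroundings, the difference was -0.23 (adjusted p 0.316), and the local background was 10.9 to 14.2 reads in the controls and 25.2 to 27.9 in HADA. A smaller peak at the 3′ end of Tap1 had 40, 33 and 34 reads in the controls and 92 and 93 in HADA 1 and HADA 2. In HADA 3 the same stretch was merged with the Psmb8 peak into 1 peak of 2238 bases.

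Psmb9 had, besides the start shared with Tap1, a low region beyond its 3′ end (chr17:34399454-34400131), with a peak of 10 reads in control 1, none in the other controls, and 30, 16 and 28 in HADA.

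Psmb10, the trypsin-like subunit, had the largest positive difference of the 12. Its region (chr8:106663469-106665113) had pileups of 57, 33 and 31 in the controls and 92, 77 and 90 in HADA. Over background it was 22.3 ± 9.94 in control and 39.2 ± 0.484 in HADA (ratio 1.76), with control 1, at 33.7, the nearest to HADA. The centred difference was 0.52 ± 0.22 (interval 0.01 to 1.04), with an adjusted p of 0.0889 (limma), and so missed the threshold. It passed over background (0.90, adjusted p 0.00745) and without control 1 (0.76, adjusted p 0.0166), and without control 3 it was 0.38 (adjusted p 0.230). The summits were 1104 to 1218 bases inside the gene in 5 libraries and 377 bases inside in HADA 2. The peaks of control 1 and the 3 HADA libraries extended over the RefSeq start, and the tallest summit lay 153 bases from another annotated start.

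**Figure D3:**
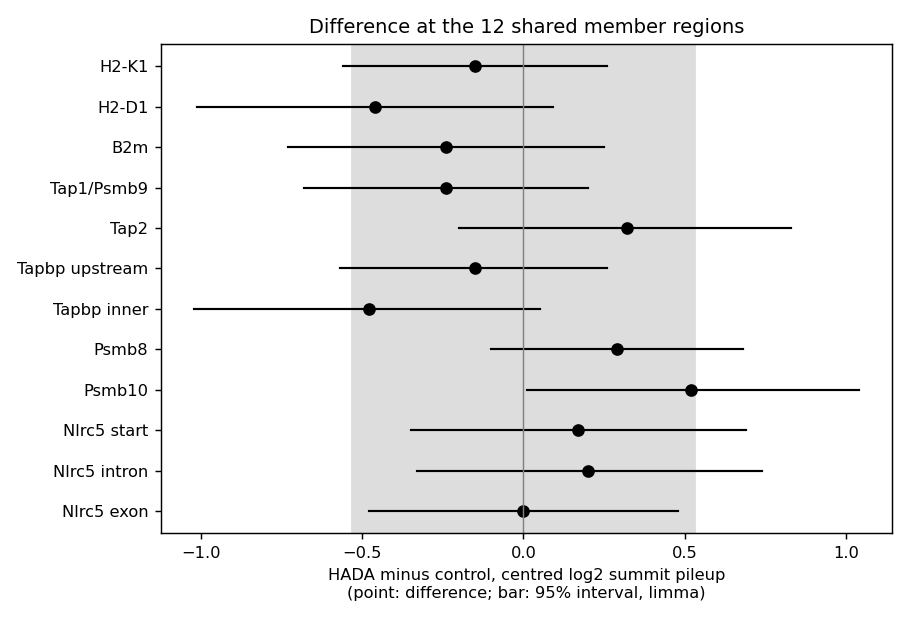
HADA minus control difference in centred log2 summit pileup (point) with its 95% limma interval (bar) for the 12 shared member regions. The grey band is the median size of the difference over all shared regions, 0.53 either side of 0. All 12 points lay inside it, and 11 of the 12 intervals included 0.

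Nlrc5, the class I transactivator, had 7 regions along its long gene body, 3 of them in all libraries. The start region (chr8:95160288-95161287) had pileups of 87, 55 and 45 in the controls and 115, 107 and 91 in HADA. Its groups overlapped over background (34.3 ± 14.9 and 47.7 ± 6.96), and the centred difference was 0.17 ± 0.22 (interval -0.35 to 0.69, adjusted p 0.570, limma). Without control 3 it was -0.02, and without control 1 it was 0.394. A region over coding exon 23 (chr8:95218685-95219263) had 45, 55 and 62 reads in the controls and 92, 79 and 78 in HADA, a centred difference of 0.00 (interval -0.48 to 0.48). An intronic region (chr8:95180585-95181313) had 13, 18 and 10 reads against 22, 26 and 23, a centred difference of 0.20 (interval -0.33 to 0.74, adjusted p 0.502, limma). With single libraries left out it ran from 0.02 without control 3 to 0.413 without control 2. After quantile normalisation it was 0.73 and passed (adjusted p 0.0255).

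The other 4 Nlrc5 regions lacked a peak in at least 1 library. The intronic region at chr8:95211892-95212873 had 11 and 13 reads in control 1 and control 2, no peak in control 3, and 39, 27 and 34 in HADA. When control 3 was left out it entered the fit and was the 1 member region called, at 0.85 (adjusted p 0.0133, limma). Near the end of the gene, chr8:95251110-95251873 had 23, 22 and 38 reads in the controls, 26 and 13 in HADA 1 and HADA 2, and no peak in HADA 3. The remaining pair were single peaks of 15 and 12 reads in HADA 2.

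Ratios within a library do not depend on the scaling between libraries, so each region was also divided by the B2m region of the same library. H2-K1 was 1.26 ± 0.153 of B2m in control and 1.33 ± 0.107 in HADA, and Tap1/Psmb9 was 1.66 ± 0.155 and 1.67 ± 0.078, with overlap in both. Tap2 was 0.266 ± 0.0174 in control and 0.392 ± 0.0424 in HADA. Psmb8 was 0.429 ± 0.0882 and 0.615 ± 0.0692, and Psmb10 was 0.178 ± 0.0697 and 0.289 ± 0.0388. At these 3 regions every HADA library was above every control (37.4% of all shared regions on this ratio), while H2-D1 was lower in every HADA library (1.68 ± 0.113 and 1.44 ± 0.0436; 21.2% of all). The ratios share B2m as divisor, so they are not independent of each other. Each of the 4 had an exact two-sided permutation p of 0.1, the smallest possible here, so none could pass 0.05, and the other 7 ratios overlapped. Psmb8 and the Tap1/Psmb9 start, both induced by interferon, are neighbours in this cluster. The ratio of Psmb8 to Tap1/Psmb9 was 0.258 ± 0.0485 and 0.371 ± 0.0581, and overlapped.

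**Figure D4:**
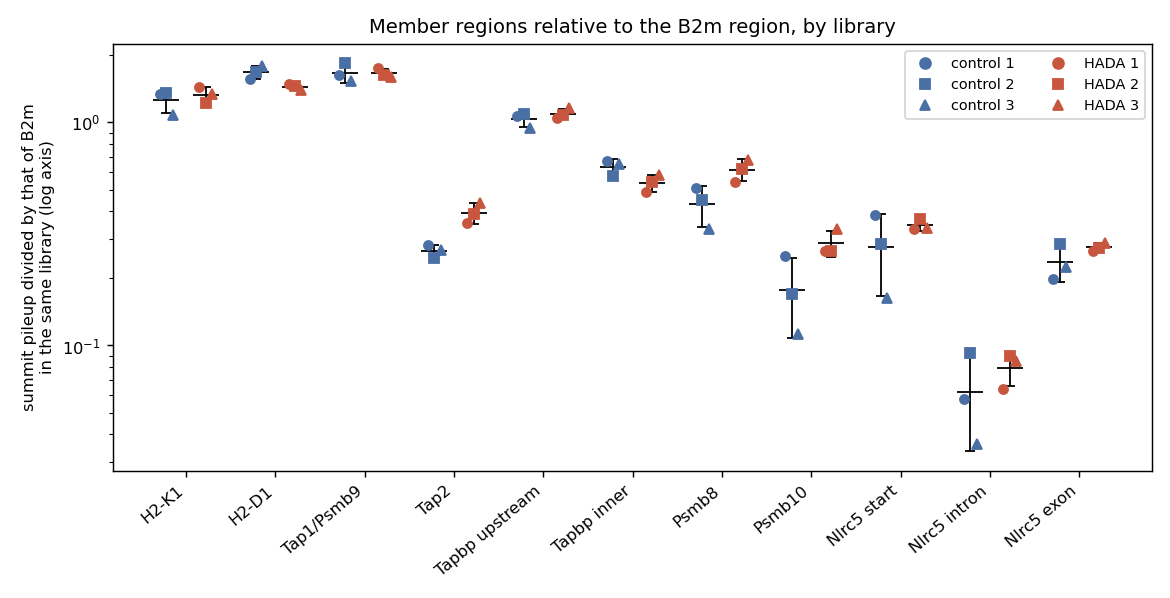
Summit pileup of 11 member regions divided by the B2m region of the same library (log axis), 1 point per library, with the mean and SD of 3 control (blue) and 3 HADA (red) libraries. The HADA points lay above the controls at Tap2, Psmb8 and Psmb10, below them at H2-D1, and overlapped elsewhere, where 37.4% of all shared regions lay above and 21.2% below on this ratio.

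By height, the members kept a wide spread in every library. Set against the shared regions at coding starts, Tap1/Psmb9 stood at percentile 93.0 to 96.0 over the 6 libraries, H2-D1 at 89.4 to 96.4, H2-K1 at 88.0 to 91.2, upstream Tapbp at 81.0 to 85.0 and B2m at 76.6 to 86.4. Psmb8 stood at 49.0 to 58.2, Tap2 at 25.0 to 42.7 and the Nlrc5 start at 24.6 to 40.1. The Psmb10 region, whose tallest summit is 1254 bases from the nearest coding start, stood at 13.8 to 24.2. The range of H2-D1 overlapped those of Tap1/Psmb9 and H2-K1, as did those of upstream Tapbp and B2m and those of Tap2 and the Nlrc5 start. Among the start regions most like the mean of the 8 member start regions over the 6 libraries were those of Apbb1ip (Pearson r 0.9967), Aff4 (0.9959), Cdc42ep3 (0.9947) and Eapp (0.9939). This is a description over 6 libraries that share their scaling, and 563 of 9552 candidate genes had an r over 0.9.

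Genes that work with the members were taken as lists. Among 16 other class I and class Ib genes, 7 of 12 shared regions were higher and 1 lower in HADA, with a median of 0.53 and against a background of 17.9% higher and 24.1% lower. The median of all shared regions was -0.04. These 12 regions lie at coding starts, where the median was 0.12 and 25.5% of shared regions were called. H2-M3, which presents formylated peptides, had pileups of 113, 115 and 83 in the controls and 256, 224 and 219 in HADA, a centred difference of 0.56 ± 0.16 (adjusted p 0.0298, limma). Cd1d1, which presents lipids to NKT cells, had 87, 74 and 43 against 180, 174 and 169 (0.79 ± 0.23, adjusted p 0.0278). H2-Q2 (0.66) and H2-Q6 (0.80) were also higher, though the summit sequence of H2-Q6 was found 3 times in the genome, and that of H2-Q7, also among the 7, was found 2 times, so the reads of both are uncertain. H2-Q10 was lower, at 33, 32 and 62 in the controls and 38, 22 and 20 in HADA (-1.28 ± 0.35, adjusted p 0.0228, limma), but was not called after quantile normalisation. None of the higher calls held when libraries were centred on starts (0 higher, 1 lower, against 9.85% and 28.7% of all). After quantile normalisation there were 6 higher and 0 lower (22.5% and 17.1% of all). H2-M2 and Azgp1 had no peak.

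The peptide loading and trimming partners include calreticulin, Erap1 and tapasin's relative Tapbpl. Of their 19 shared regions 1 was higher and 0 lower (median 0.05), against 17.9% and 24.1% of all. None of their 16 start regions was called on the centred scale, against 25.5% of shared regions at coding starts. The counts were 3 higher over background (31.9% of all) and 2 higher after quantile normalisation (22.5% of all). Centred on starts they were 1 higher and 1 lower (9.85% and 28.7% of all). Of the proteasome partners, 3 of 16 were higher and 1 lower (median 0.05), against 17.9% and 24.1% of all shared regions. Over background the counts were 5 higher and 0 lower (31.9% and 18.6% of all regions), and centred on starts 1 higher and 2 lower (9.85% and 28.7% of all). The called pair of the PA28 activator went in opposite directions: Psme1 had 63, 61 and 54 reads in the controls and 146, 132 and 132 in HADA (0.58 ± 0.15, adjusted p 0.0207, limma), and Psme2 had 487, 459 and 777 against 513, 392 and 411 (-0.98 ± 0.27, adjusted p 0.0232). Psme1 was not called when centred on starts (0.42, adjusted p 0.0531), and Psme2 was not called over background (-0.60, adjusted p 0.0759). Psmf1, a proteasome inhibitor, was higher at 0.52 (adjusted p 0.0329), but not when centred on starts (0.35, adjusted p 0.0678), and Psmb11, the thymic subunit, had no peak. Of the transcription factors and interferon signalling genes, 5 of 45 were higher and 5 lower (median -0.04), below those shares of all regions. Over background the counts were 8 higher and 4 lower, and centred on starts 4 higher and 7 lower, with the same shares of all regions on those scales as above. At starts, the lower calls were Ifngr2, a chain of the interferon gamma receptor (-1.11 ± 0.28, adjusted p 0.0195), and Rfxap, a subunit of RFX (-0.61 ± 0.18, adjusted p 0.0321). Over background Ifngr2 was called lower too (-0.73, adjusted p 0.0300) and Rfxap was not (-0.23, adjusted p 0.526).

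**Figure D5:**
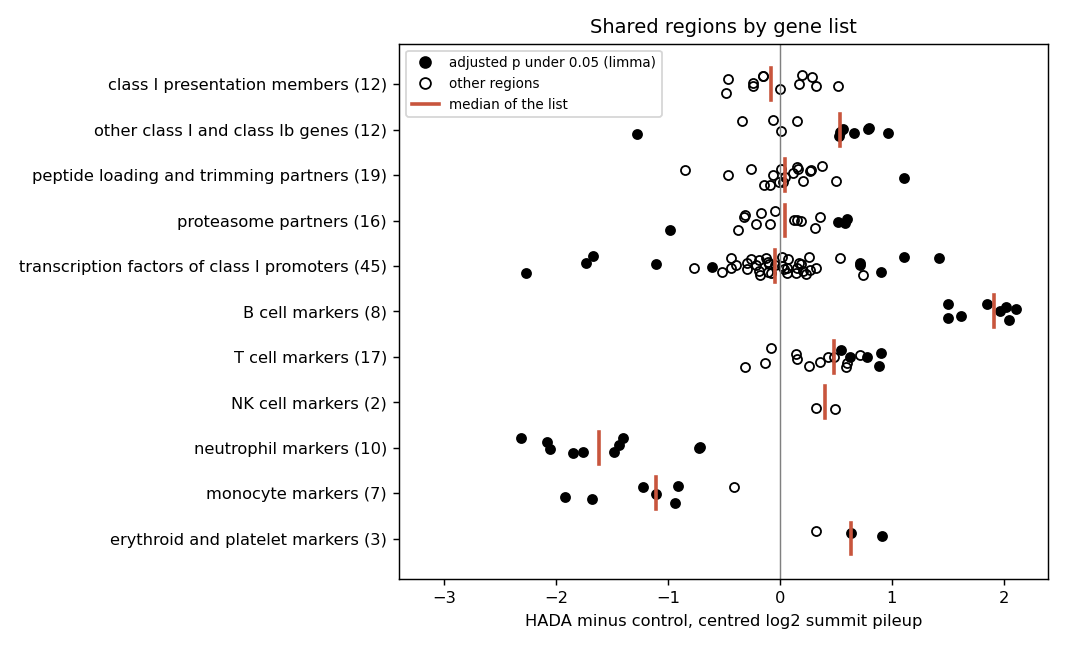
HADA minus control difference in centred log2 summit pileup at the shared regions of each gene list (number of regions in brackets). Filled points had an adjusted p under 0.05 in limma, open points did not, and bars are list medians. The 12 member regions were all open points around 0, the 8 B cell regions were all filled and above 1, and 9 of 10 neutrophil regions were filled and below 0.

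Markers of several blood cell types differed between the groups on the centred scale. On that scale limma called 17.9% of all shared regions higher and 24.1% lower. All 8 shared B cell regions were higher in HADA (median 1.91), and the summed height over background of the B cell list was 618, 356 and 79.2 in control 1 to 3 and 1650 to 1720 in HADA. For the T cell list 5 of 17 were higher and 0 lower, with sums of 479 to 717 in control and 1050 to 1080 in HADA. For the neutrophil list 0 of 10 were higher and 9 lower (median -1.62), with sums of 843, 491 and 1640 in control and 240 to 556 in HADA. For the monocyte list 0 of 7 were higher and 6 lower, with sums of 279 to 374 and 201 to 229. Not every region of these lists went the same way. Ly6c2 of the monocyte list, named after its values were seen, is an example. Its start had 40 and 30 reads in control 1 and control 2, no peak in control 3, and 98, 81 and 76 in HADA. A peak in all 3 HADA and no control libraries was found at 2 of 32 neutrophil and 1 of 25 monocyte regions, against 7.01% of all. For the B cell, T cell and NK lists it was found at 10 of 52, 2 of 43 and 2 of 10. The converse was found at 1 monocyte and 0 neutrophil regions (1.88% of all). The NK list had 0 of 2 called and sums of 18.6 to 53.3 and 77.8 to 97.8, and the erythroid and platelet list 2 of 3 higher and sums of 83.6 to 98.8 and 178 to 220. By fold rank, 0 of the 8 B cell regions, 0 of the 7 monocyte regions and 1 of the 10 neutrophil regions (higher) were called, against 11.3% of all. Over background, 11 of 17 T cell and 2 of 2 NK regions were higher, against 31.9% of all. Klrk1, Ngp, Camp, Hba-a1, Epb42, Ppbp and Gp9 had no peak. The part of cell type shares in the values of the class I genes was not tested, and in unsorted cells fewer cells of a type and less open chromatin per cell cannot be told apart.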

How the data were processed

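The authors trimmed reads (Trimmomatic), aligned them to GRCm39 (Bowtie2), removed duplicates (Picard) and called peaks for each library by itself (MACS2). Versions, options and any Tn5 shift are not given in the sources used here. The deposited lists hold, per peak, a score, a fold enrichment and 2 significance columns (−log10 of the p-value and of the q-value), and no total read count. The whole-number summit pileup and local background were solved from the deposited fold and −log10 p-value, which worked for 100% of peaks in all libraries. Peaks of the 6 lists sharing 1 bp were merged, and the tallest peak of a library gave its value. Groups came from the labels. Regions with a peak in all libraries were compared with limma 3.58.1 (R 4.3.3) on centred log2 pileup, without a block, with Benjamini-Hochberg adjustment over all 23970 regions at 0.05. The fit was also run on simulated data in which few regions changed, so that run does not check it under changes as broad as here. Regions without a peak in some library have no value there and were not imputed. Genes were from the GENCODE annotation of GRCm39. Promoter windows came from RefSeq, a table of build GRCm38.p6, and were placed in GRCm39 by exact match. All regions of the 10 members are described; of other lists, up to 4 genes per direction with the smallest limma p at the start and those with no peak are named, and of the 5 start regions most like the members 4 are given; 1 gene and 1 sequence are not reported here. The members and lists were chosen with earlier results of these data known. Alternatives were other scalings, peak limits and merging rules, a replicate block and leaving out each library. A peak list has a floor: a missing peak is not a height of 0.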

Additional observations from a re-analysis of the deposited data

How the results depend on the processing

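Across 16 settings, the count of member regions called was 0 to 3 higher and 0 to 1 lower. Over background 3 were called higher, with 7636 of all regions higher. With fold ranks 1573 of all were higher and 1146 lower. Centred on coding starts, chosen after seeing the data like quantile normalisation, 2360 of all were higher and 1 member was lower, and quantile normalisation called 1 member higher. Leaving out 1 library at a time gave 0 to 1 member higher and 0 to 1 lower, and 737 to 4810 of all regions higher and 2021 to 5907 lower, lowest without HADA 2, at 737 and 2021. It gave 1 to 2 HADA-only member regions, 2 without control 1, where 11.4% of all regions were HADA-only, and 1 without any other library, where 7.36% to 8.89% were. Peaks with a −log10 q of at least 5, or the same number of strongest peaks per library, gave 3 HADA-only member regions, at 8.59% and 5.84% of all regions. The replicate block called 2991 higher, 5660 lower and 0 members; the numbers only name libraries, with same-number correlations of -0.08, 0.08 and -0.38, and not every library correlated best with its own number. Of 179 differences at single member regions under alternatives, 15 changed sign: over background, Tapbp upstream 0.23, H2-K1 0.23, Tap1/Psmb9 0.14 and B2m 0.14; by fold rank, Tapbp upstream 0.0566, Psmb8 -0.23, H2-D1 0.0248 and the Nlrc5 start -0.061; after quantile normalisation, H2-K1 0.0327 and Tap1/Psmb9 0.0126; and the Nlrc5 exon, at -0.0754 with unique summits and -0.16 when centred on starts, and from -0.16 to 0.13 with 1 library left out, where the Nlrc5 start ran from -0.0224 to 0.394. The cause was not tested.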
